A study of Mus musculus with 2 samples.

Results

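Fc receptor transcripts were followed across the cell classes of the lung in 1 saline library and 1 library from mice given nanoparticles (NPs). The 7 genes chosen by symbol were Fcgr1, Fcgr3, Fcgr4, Fcer1a, Fcer1g, Fcgr2b and Fcgrt, and all 7 were found among the 32285 genes of the matrices. The lungs came from female BALB/cJ mice aged 12 weeks inoculated with 100000 4T1 cells, which are a mammary carcinoma line of the mouse that spreads to the lung. Intravenous saline or cargo-free poly(lactide-co-glycolide) (PLG) NPs were given every 3 days from day 1, 5 doses by the series' design text, and lungs were taken on day 14 and lysed for red cells with ACK buffer. Both groups carried tumors, no tumor-free lung was analysed here, and each library is a pool of mice, 4 by the labels and a different number by the study's methods. Mouse-to-mouse spread is therefore not visible, no test was possible between conditions, and every interval below is an exact 95% interval that covers counting error only.

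The matrices gave 8662 saline and 8333 NP cells with medians of 6474.5 and 6008 UMIs (unique molecular identifiers, each standing for 1 captured transcript), and 21 cell barcodes occurred in both libraries. Cells were clustered without the Fc receptor genes and the clusters were named from markers, so a class name such as neutrophils means neutrophil-like by its markers. Neutrophil-like cells numbered 5627 in saline and 3111 in NP. Monocyte-like clusters were kept as classical (571 saline and 740 NP cells), non-classical (91 and 352 cells) and dual-marker (124 and 400 cells), the last with the marker lists of both other monocyte classes raised. The lung label was checked against markers, which gave alveolar macrophage-like (166 and 223 cells), endothelial-like (429 and 1543 cells), epithelial-like (75 and 121 cells) and fibroblast-like (93 and 130 cells) clusters. The remaining classes were interstitial macrophage-, mature and plasmacytoid dendritic cell-, basophil-, B cell-, T cell-, NK cell- and mural cell-like, together with a cluster led by the MHC class II gene H2-Eb1 that stayed unnamed (42 and 45 cells) and unnamed mixed clusters (253 and 260 cells).

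Fc receptors are surface proteins that bind the constant part of antibodies and so connect antibody-coated particles and cells to phagocytosis, cytokine release and killing. Fcgr1, Fcgr3 and Fcgr4 encode the activating receptors for IgG, whose signal runs through the shared chain encoded by Fcer1g, and Fcgr2b encodes the inhibitory receptor, which recruits phosphatases and dampens that signal. Fcer1a encodes the IgE-binding chain of the high-affinity IgE receptor of mast cells and basophils, and Fcgrt encodes the heavy chain of the neonatal Fc receptor, which pairs with beta-2-microglobulin and returns internalised IgG to the circulation.

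Most of the family lies on chromosome 1. On GRCm38, Fcgr2b (ENSMUSG00000026656) spans chr1:170958617-170976547 on the minus strand, Fcgr4 (ENSMUSG00000059089) chr1:171018920-171029761 on the plus strand, Fcgr3 (ENSMUSG00000059498) chr1:171051174-171064935 on the minus strand and Fcer1g (ENSMUSG00000058715) chr1:171229572-171234365 on the minus strand. Fcer1a (ENSMUSG00000005339) lies at chr1:173221284-173227214, Fcgr1 (ENSMUSG00000015947) at chr3:96282909-96293969 and Fcgrt (ENSMUSG00000003420) at chr7:45092990-45103851, all on the minus strand. The coding sequences of the outer domains of Fcgr2b and Fcgr3 are closely related, so reads that fall there may be assigned with some error. The counts come from the 3′ ends of transcripts, and the size of any such error was not tested.

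The 250 bases before the RefSeq start are shown for 3 genes, the inhibitory gene Fcgr2b and the activating genes Fcgr1 and Fcgr4. Fcgr2b was lower in NP in 6 of 6 classical monocyte clusters. Fcgr1 was higher in 4 of them and lower in 2, each time with 1 interval clear of 0. It was lower in both dual-marker clusters compared. Fcgr4 was higher in 3 of 5 classical clusters and in both dual-marker clusters, with none of these intervals clear of 0. It was lower in the other 2 classical clusters, 1 with its interval clear of 0, and the lowest log2 ratio was -0.46. In non-classical monocytes Fcgr4 was higher, with its interval clear of 0. Each window is written 5′ to 3′ on the strand of the gene from RefSeq on GRCm38.p6, with capitals marking a match to a motif. The windows are chr3:96293970-96294219 (minus strand) for Fcgr1, chr1:171018676-171018925 (plus strand) for Fcgr4 and chr1:170976072-170976321 (minus strand) for Fcgr2b.
Fcgr1: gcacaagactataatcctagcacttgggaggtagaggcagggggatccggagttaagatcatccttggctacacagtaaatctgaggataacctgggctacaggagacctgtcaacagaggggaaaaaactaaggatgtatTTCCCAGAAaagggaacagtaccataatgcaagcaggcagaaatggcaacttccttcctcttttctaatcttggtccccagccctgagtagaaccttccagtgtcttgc
Fcgr4: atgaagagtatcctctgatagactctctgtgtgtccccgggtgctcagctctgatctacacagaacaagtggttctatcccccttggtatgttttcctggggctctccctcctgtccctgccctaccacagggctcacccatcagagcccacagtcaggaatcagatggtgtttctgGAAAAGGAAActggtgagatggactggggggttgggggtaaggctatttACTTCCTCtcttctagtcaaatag
Fcgr2b: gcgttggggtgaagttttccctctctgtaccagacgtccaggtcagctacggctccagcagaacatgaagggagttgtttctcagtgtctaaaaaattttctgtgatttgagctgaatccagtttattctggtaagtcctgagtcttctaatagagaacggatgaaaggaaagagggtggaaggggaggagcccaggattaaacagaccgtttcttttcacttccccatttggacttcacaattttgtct

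Each motif was searched on both strands of 32851 such windows: the interferon-gamma activated site (GAS) as TTCNNNGAA, the core of the interferon-stimulated response element (ISRE) as GAAA and GAAA with any 2 bases between them, and a core bound by the myeloid factor PU.1 as GAGGAAGT. In Fcgr1 the capitals mark a GAS match, TTCCCAGAA, 109 bases before the start, and 7.02% of all windows held a GAS match. In Fcgr4 they mark an ISRE core match, GAAAAGGAAA, 73 bases before the start (2.98% of windows) and a PU.1 core match on the opposite strand, ACTTCCTC, 24 bases before the start (2.44% of windows), and these matches shared no base. The Fcgr2b window held none of these letters, nor did the windows of the other members. The RefSeq starts used for Fcgr2b and Fcgr3 lie inside the gene spans given above. Their windows therefore do not cover the bases before the start of those spans. A match describes letters only and shows no binding.

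Levels are given as CPM, which is how many UMIs a gene had for every 1000000 UMIs of the class. The counts come from the 3′ ends of transcripts and were not divided by length, so levels are compared between classes and libraries and not between genes.

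Fcgr3 was the receptor spread most widely over the myeloid classes. In saline its level was 711 CPM in interstitial macrophages (18 cells), 568 in neutrophils, 539.9 in classical monocytes, 470.7 in basophils, 456 in dual-marker monocytes, 432 in alveolar macrophages and 336 in non-classical monocytes. In the NP library the values were 690.3, 521, 467, 379, 389, 465 and 256 in the same order. Adjacent classes in the saline order from basophils to alveolar macrophages were not separated, since their counting intervals overlapped. Neutrophils supplied 74% of all Fcgr3 UMIs in saline and 48.5% in NP. The level was 7.89 and 4.69 in B cells, 67.5 and 53.8 in T cells and 61.3 and 37.0 in endothelial cells, where a subtraction of free RNA estimated from empty droplets could account for up to 54.2%, 54.6% and 64% of the saline UMIs. NK cells held 86.0 and 84.5, of which free RNA could supply up to 28.2% in saline and 55.6% in NP.

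Fcgr4 had its highest level in non-classical monocytes, with 922 CPM in saline and 1069.6 in NP. The next classes lay far lower: dual-marker monocytes at 140.2 and 162, neutrophils at 139.6 and 164, and alveolar macrophages at 118 and 126. Classical monocytes stood at 67.6 and 65.9. After each cell was thinned to 1000 UMIs, 53.8% of saline and 61.1% of NP non-classical monocytes held an Fcgr4 UMI (93.4% and 97.4% unthinned), against 0.396% and 0.714% of T cells (6.14% and 5% unthinned). Fcgr4 was the activating transcript with a higher level in non-classical monocytes than in the other monocytes, with non-overlapping intervals in both libraries, while Fcgr1 and Fcgr3 were lower there.

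Fcgr1, the high-affinity IgG receptor, was a transcript of monocytes and macrophages. Dual-marker monocytes held 153 CPM in saline and 112 in NP, classical monocytes 84.5 and 119, alveolar macrophages 53.1 and 55.6, and non-classical monocytes 45.4 and 57.7. Interstitial macrophages held 41.0 and 108 from 9 and 52 UMIs. Neutrophils lay at 0.641 and 1.85 CPM although they were the most numerous class. No Fcgr1 UMI was counted in B cells (0 of 472 and 0 of 596 cells) or basophils, which in the thinned B cells allows a share of cells with a UMI of up to 0.636% and 0.503%.

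Fcer1g, the signalling chain, was high in every class that carries activating receptors. It lay at 2448 and 2559 CPM in neutrophils, 2647 and 2504 in classical monocytes, 3003 and 3067 in dual-marker monocytes, 3619.9 and 3908 in non-classical monocytes, and 1278 and 1352 in alveolar macrophages. NK cells, which also use the chain, held 1990.5 and 1786, and basophils 2486 and 2161. Thinned to 1000 UMIs, over 90% of cells of each monocyte class and of the neutrophils held an Fcer1g UMI, for example 91.3% and 92.9% of neutrophils, against 10.9% and 10.2% of T cells. B cells lay lowest, at 62.4 and 28.5 CPM.

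Fcgr2b, the inhibitory receptor, followed another order. In saline, dual-marker monocytes held 335 CPM, interstitial macrophages 333, classical monocytes 293, non-classical monocytes 230.2, the H2-Eb1-led cluster 130.4, basophils 97.6, B cells 68.5 and NK cells 58.8. In NP the same classes held 209.6, 394, 183, 190.2, 162, 85.4, 51.0 and 57.8. Alveolar macrophages and neutrophils lay below them, with 20.01 and 29.8 in the former and 17.4 and 21.8 in the latter, close to T cells (14.5 and 14.7) and endothelial cells (17.2 and 12.5). Classical monocytes therefore carried more of all saline Fcgr2b UMIs (52.2%) than the neutrophils (16.2%), which numbered 5627 cells against 571.

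**Figure D1:**
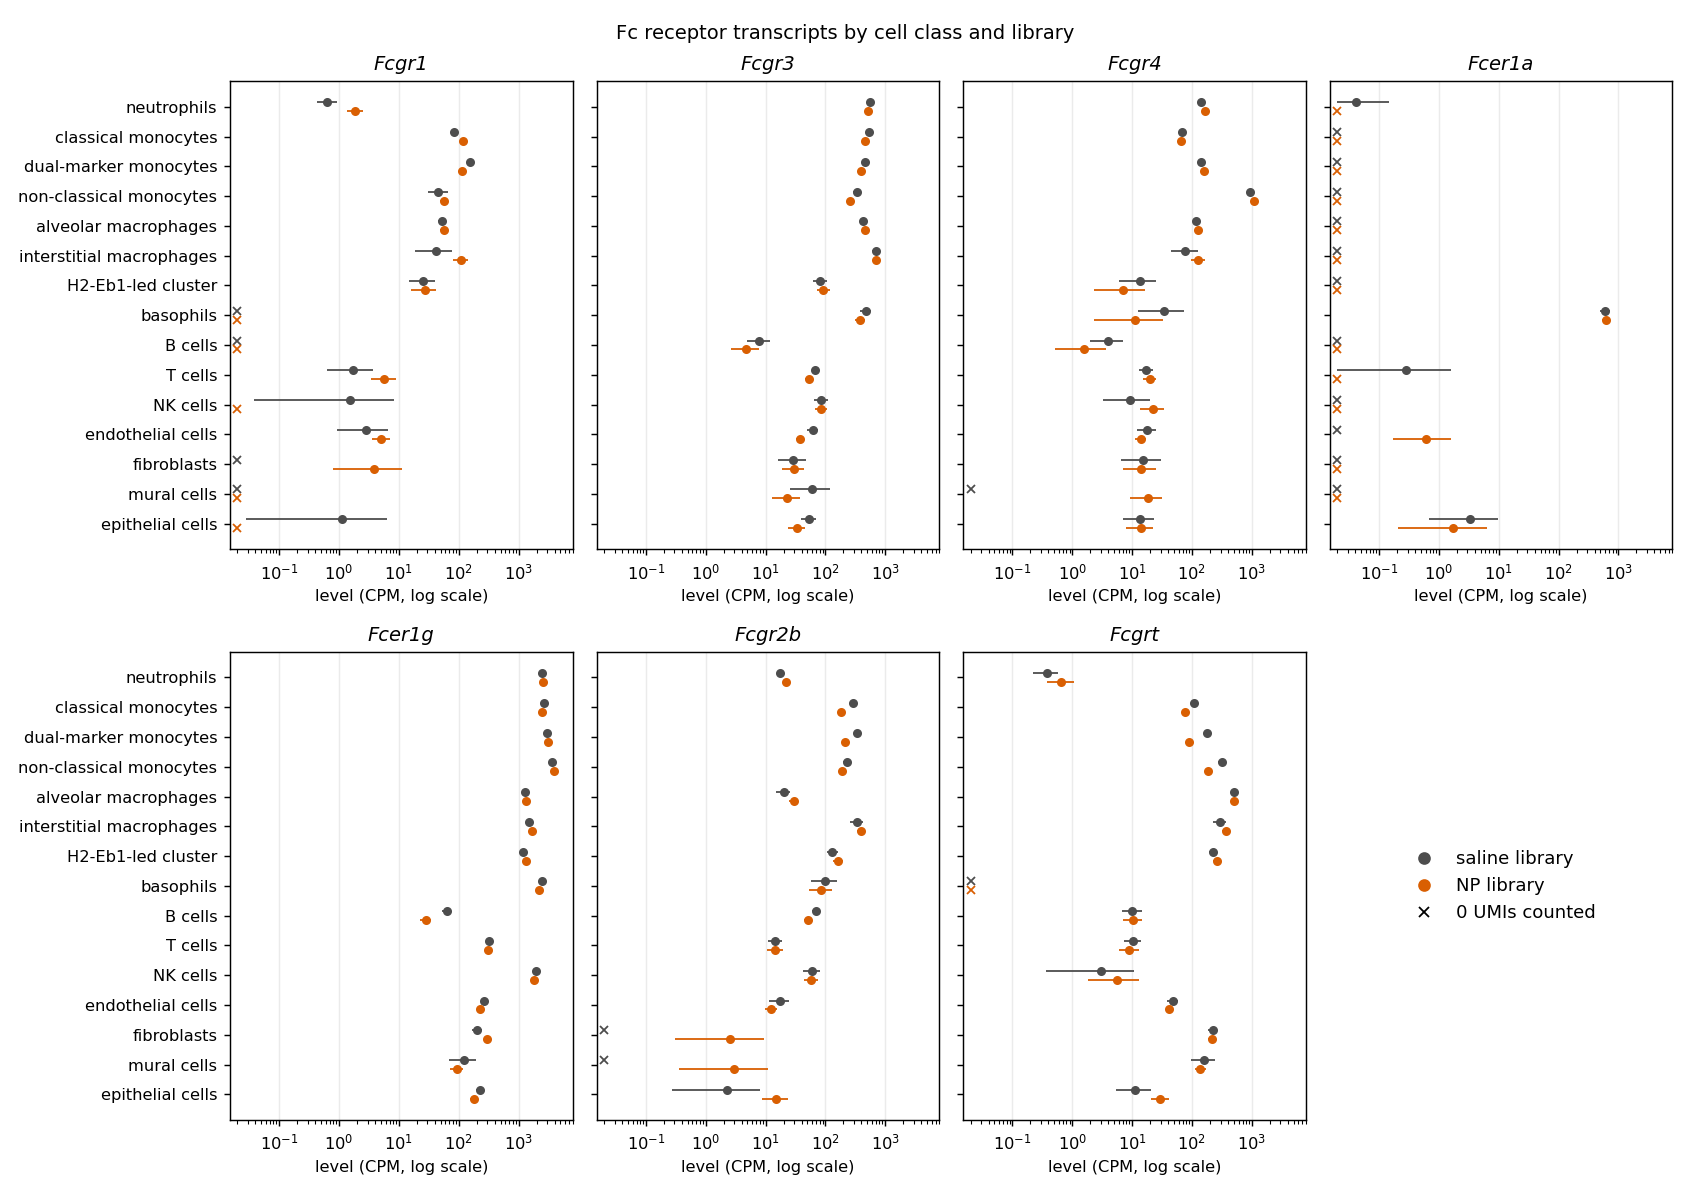
Each panel plots one gene, with its level in CPM on a log axis, the cell classes down the side, saline in grey and NP in orange. Points are pooled levels, bars are 95% Poisson intervals and crosses at the left edge mark a count of 0. Fcer1a stands in basophils at 597 and 616, Fcgr4 peaks in non-classical monocytes at 922 and 1069.6, and Fcgr2b lies to the right in monocytes and far to the left in neutrophils at 17.4 and 21.8.

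The balance of activating and inhibitory receptors was expressed as Fcgr1, Fcgr3 and Fcgr4 UMIs per Fcgr2b UMI, a ratio that compares classes and libraries but is no measure of protein. It ran over more than 2 orders of magnitude across the classes. In saline it was 40.8 in neutrophils (34230 activating and 840 inhibitory UMIs), 30.1 in alveolar macrophages (1747 and 58), 5.66 in non-classical monocytes (804 and 142), 2.36 in classical monocytes (6401 and 2711) and 2.24 in dual-marker monocytes (1406 and 629). The H2-Eb1-led cluster stood at 0.920 (81 and 88 UMIs) and B cells lay at 0.173 (33 and 191). A ratio of 1 means equal UMI counts and is no point of balance between the receptors. NK cells stood at 1.64 (64 and 39 UMIs). Mature dendritic cells, with 1 cell in saline, stood at 0.625 in NP (55 and 88 UMIs). The intervals of classical and dual-marker monocytes overlapped (2.26 to 2.47 and 2.03 to 2.46), while those of non-classical monocytes (4.73 to 6.82) lay above both.

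In the NP library the ratio was higher in all 3 monocyte classes and lower in neutrophils and alveolar macrophages. Classical monocytes stood at 3.57 (8176 and 2292 UMIs), a log2 difference from saline of 0.60 (95% interval 0.50 to 0.69). Dual-marker monocytes stood at 3.16, a log2 difference of 0.50 (0.34 to 0.67), and non-classical monocytes at 7.27, a log2 difference of 0.36 (0.06 to 0.65). Neutrophils stood at 31.4 (16720 activating and 532 inhibitory UMIs), a log2 difference of -0.37 (-0.54 to -0.21), and alveolar macrophages at 21.7 (2776 and 128 UMIs), a log2 difference of -0.47 (-0.96 to -0.01). Neutrophil Fcgr2b (17.4 and 21.8 CPM) lay near its level in T cells (14.5 and 14.7), and the part of free RNA in the neutrophil ratio was not estimated. Over these 5 classes alone the NP ratio spanned a smaller range than the saline ratio did. Among classes that lay lower, B cells (0.173 and 0.123) and the H2-Eb1-led cluster (0.920 and 0.783) were lower in NP. NK cells were higher (1.64 and 1.85), and the intervals of all these differences included 0.

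The alveolar macrophage difference rested on few cells and on the mitochondrial limit. With mitochondrial UMIs limited to 5% in place of 7.5%, 73 saline and 100 NP alveolar macrophages were left with 27 and 35 Fcgr2b UMIs, and the log2 difference turned to 0.23. The non-classical difference depended on counting Fcgr4: with Fcgr3 alone as the activating receptor it was -0.11. It also went with a lower Fcgr2b level there, a log2 ratio of -0.28 (-0.54 to -0.00045). In B cells the ratio was 0.123 in NP (20 and 163 UMIs), a log2 difference of -0.49 (-1.43 to 0.41), whose interval included 0. The difference largest in size, -3.26 (-6.46 to -1.07) in epithelial cells, rested on 2 saline and 17 NP Fcgr2b UMIs.

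**Figure D2:**
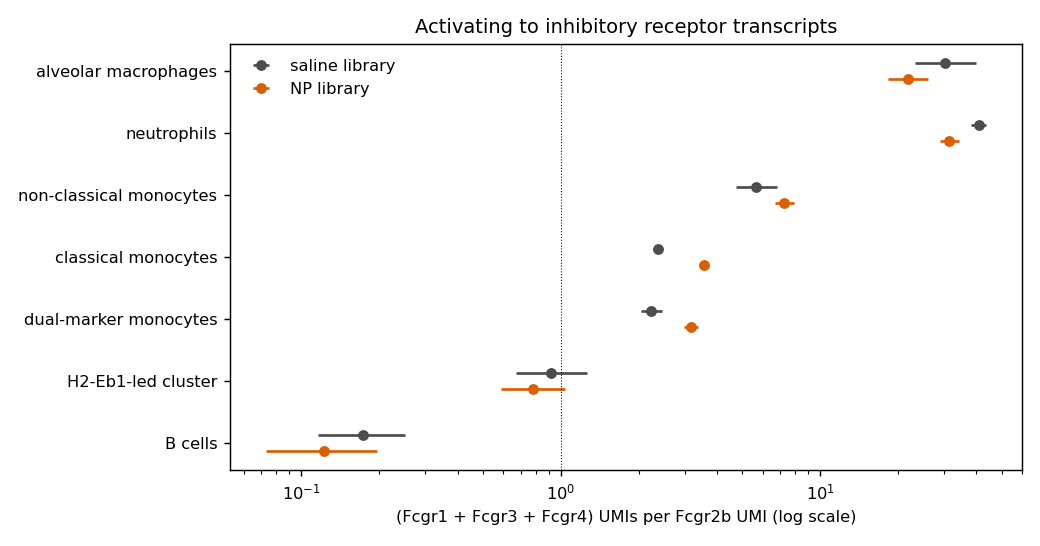
The horizontal log axis gives activating UMIs (Fcgr1, Fcgr3 and Fcgr4) per inhibitory Fcgr2b UMI for 7 classes, with saline in grey, NP in orange and bars for exact 95% intervals from the counts. The 3 monocyte classes lie further right in NP (3.57 against 2.36 in classical monocytes), neutrophils lie further left (31.4 against 40.8), and only B cells and the H2-Eb1-led cluster fall left of the dotted line at 1.

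In monocytes the higher ratio went with a lower level of the inhibitory gene. Fcgr2b in classical monocytes was 293 CPM in saline and 183 in NP, a log2 ratio of -0.68 (-0.76 to -0.60). In dual-marker monocytes it was 335 and 209.6, a log2 ratio of -0.68 (-0.82 to -0.54), and in non-classical monocytes 230.2 and 190.2, a log2 ratio of -0.28 (-0.54 to -0.00045). Free RNA could supply at most 0.443% of the saline and 0.666% of the NP Fcgr2b UMIs of classical monocytes. The summed share of 14 neutrophil markers in classical monocytes was 0.594% of UMIs in saline and 0.272% in NP, with none of the markers at 0 in either library, and its part in the Fcgr2b result was not tested.

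Different clusters held most classical monocytes in the libraries: M4 and M5, with 184 saline cells each, against M3 and M2, with 281 and 247 NP cells. The difference was therefore read cluster by cluster. Fcgr2b was lower in NP in 6 of 6 classical clusters, and in 4 of them the interval excluded 0. The steepest value was in M3, from 408 to 208 CPM, a log2 ratio of -0.97 (-1.19 to -0.74), and the smallest in M2, from 144 to 131, a log2 ratio of -0.14 (-0.35 to 0.08). Both dual-marker clusters that could be compared were lower as well, at -0.75 in M1 and -0.47 in M8. The activating to inhibitory ratio was higher in NP in 6 of 6 classical clusters, from a log2 difference of 0.21 in M2 to 0.70 in M3, with 4 intervals clear of 0.

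**Figure D3:**
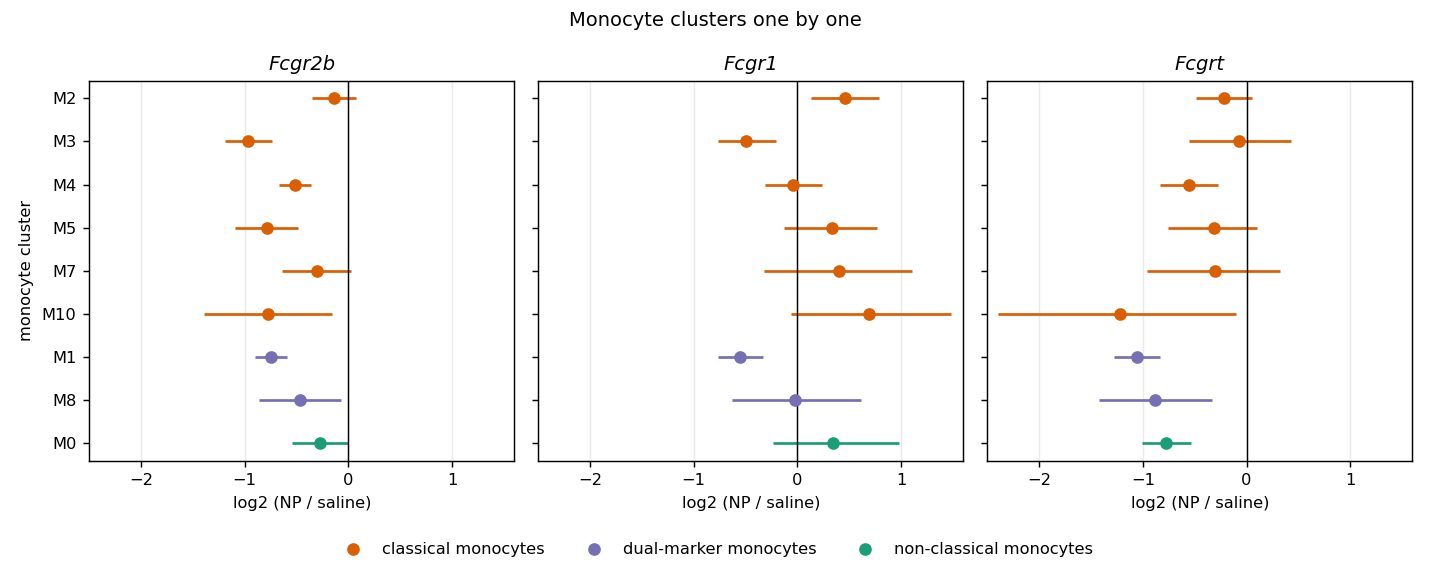
The horizontal axis gives the log2 ratio of NP to saline in CPM for Fcgr2b, Fcgr1 and Fcgrt in each monocyte cluster, coloured by class, with exact 95% intervals from the counts. All 9 points for Fcgr2b and for Fcgrt lie left of 0, while Fcgr1 lies on both sides, from -0.55 in M1 to 0.69 in M10.

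Other members of the activating group did not share a direction in monocytes. Fcgr1 was higher in NP in classical monocytes as a whole, from 84.5 to 119 CPM, a log2 ratio of 0.49 (0.37 to 0.62). Held at the saline mix of clusters, that log2 ratio was 0.13, and it was 0.14 without M3, the cluster with most NP cells. Within M3 itself Fcgr1 was lower, from 259 to 184, a log2 ratio of -0.49 (-0.76 to -0.21), whereas in M2 it was higher, from 55.5 to 76.1, a log2 ratio of 0.46 (0.13 to 0.79). In dual-marker monocytes it went from 153 to 112, a log2 ratio of -0.44 (-0.64 to -0.24). The class value for Fcgr1 thus moved with the mix of clusters.

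Fcgr3 was lower in NP in each monocyte class, by small amounts. The log2 ratio was -0.21 (-0.26 to -0.15) in classical, -0.23 (-0.34 to -0.12) in dual-marker and -0.39 (-0.61 to -0.16) in non-classical monocytes. It was lower in 4 of 6 classical clusters, all 4 with intervals clear of 0. Fcgr4 went the other way in non-classical monocytes, where the log2 ratio was 0.21 (0.08 to 0.34), and in dual-marker monocytes, where it was 0.20 (0.01 to 0.41). In classical monocytes it was -0.04 (-0.19 to 0.12), and -0.59 without M3. Fcgr4 made up 70.8% of the activating UMIs of non-classical monocytes in saline and 77.3% in NP, and Fcgr3 25.7% and 18.5%.

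Fcer1g differed little where the receptors themselves differed. Its log2 ratio was -0.08 (-0.10 to -0.06) in classical, 0.03 (-0.01 to 0.07) in dual-marker and 0.11 (0.05 to 0.18) in non-classical monocytes, 0.06 (0.05 to 0.08) in neutrophils and 0.08 (0.02 to 0.14) in alveolar macrophages. The counts are large, so intervals clear of 0 surround ratios that are near the middle of all genes: over all genes that had 20 or more UMIs the median log2 ratio was -0.05, -0.02, -0.04, -0.13 and -0.04 in the same order. Fcer1g was lower in NP in 6 of 7 neutrophil clusters, and its ratio turned to -0.12 in neutrophils without their Steap4-led cluster and to -0.23 in alveolar macrophages with at most 4000 detected genes.

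In neutrophils the activating side was made of Fcgr3 (80.2% of activating UMIs in saline and 75.9% in NP) and Fcgr4 (19.7% and 23.9%). Fcgr3 was 568 CPM in saline and 521 in NP, a log2 ratio of -0.12 (-0.15 to -0.09), which was 0.01 after the median of genes with at least 200 UMIs was subtracted. Fcgr4 was 139.6 and 164, a log2 ratio of 0.23 (0.17 to 0.29). Fcgr2b was 17.4 and 21.8, a log2 ratio of 0.33 (0.17 to 0.49). Fcgr1 rested on 31 and 45 UMIs, and its log2 ratio was 1.53 (0.84 to 2.24). Its level, 0.641 and 1.85 CPM, lay below that of T cells (1.71 and 5.74). The part of free RNA in neutrophils was not estimated.

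These neutrophil values depended on a cluster led by Steap4, with the interferon-inducible genes Cxcl10 and Rsad2 among its 10 leading genes, which held 311 saline and 1302 NP neutrophils, while the largest saline clusters were led by Hbb-bs (1799 saline and 342 NP cells) and Stfa2 (983 and 22 cells). Within the Steap4-led cluster Fcgr4 was 213 CPM in saline and 307 in NP, a log2 ratio of 0.53, and Fcgr2b had 21 and 180 UMIs, a log2 ratio of 1.04. Without that cluster the Fcgr4 log2 ratio of all other neutrophils turned to -0.21 and that of Fcer1g to -0.12, while that of Fcgr3 was -0.24, that of Fcgr2b 0.13 and that of Fcgr1 0.55. The activating to inhibitory ratio was lower in NP in 5 of 6 neutrophil clusters, from a log2 difference of -0.86 in the Steap4-led cluster to 0.01 in the larger of the Hbb-bs-led clusters (the smaller stood at -0.75), with 2 intervals clear of 0.

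Alveolar macrophages kept close values in the libraries for every member but Fcgr2b. The log2 ratio was 0.07 (-0.23 to 0.37) for Fcgr1, 0.11 (0.0029 to 0.21) for Fcgr3, 0.10 (-0.10 to 0.30) for Fcgr4 and 0.57 (0.12 to 1.05) for Fcgr2b, the last from 58 and 128 UMIs, of which free RNA could supply up to 9.2% and 9.63%. With mitochondrial UMIs limited to 5%, the Fcgr2b log2 ratio was -0.19, and with at most 4000 detected genes that of Fcgr3 was -0.11.

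**Figure D4:**
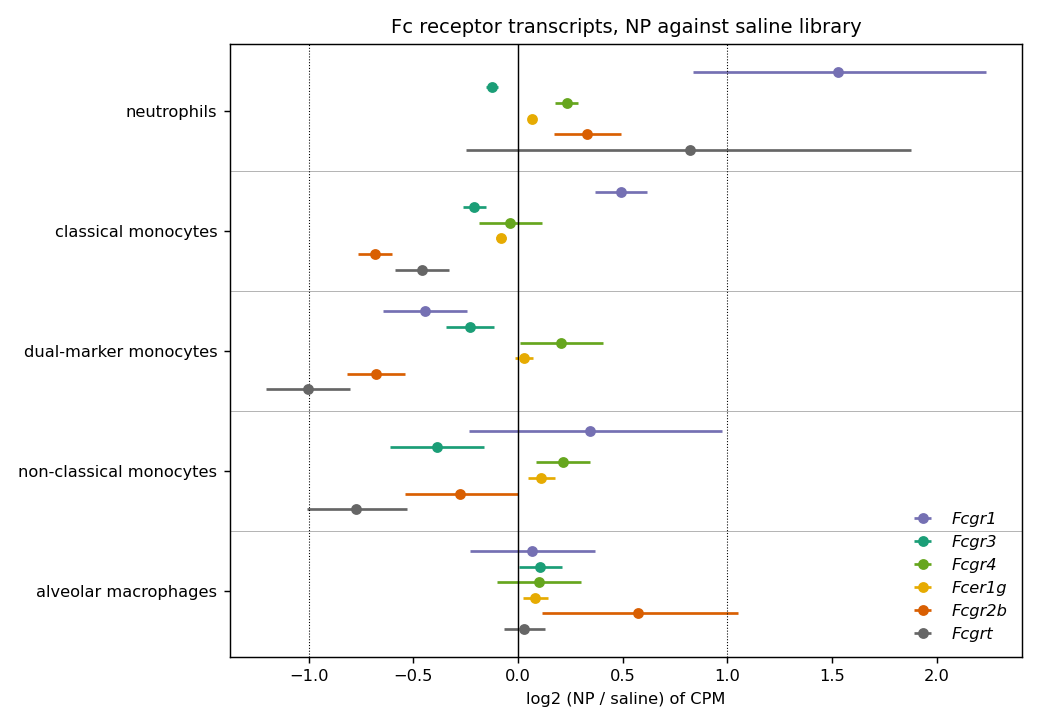
The horizontal axis gives the log2 ratio of NP to saline in CPM for 6 members in 5 classes, with exact 95% intervals from the counts and dotted lines at ratios of 1 and -1. Fcgr2b (orange) lies left of 0 in the monocytes (-0.68, -0.68 and -0.28) and right of 0 in neutrophils (0.33) and alveolar macrophages (0.57), and Fcer1g (yellow) stays near 0 throughout.

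A log2 ratio of at least 1 in size, in either direction, served to count larger differences. Of 69 comparisons of a member in a class with at least 20 UMIs over both libraries and 20 cells in each, 7 were past it. Fcgr1 in neutrophils was higher in NP (1.53, and 0.55 without the Steap4-led cluster), in a class where 7.49% of 11135 genes were past it. Its level there lay below that in T cells in both libraries, and the part of free RNA was not estimated. Fcgrt in dual-marker monocytes was lower (-1.005, with 5.33% of 9585 genes past it), and so was Fcer1g in B cells (-1.13, with 3.48% of 9361 genes). Both fell short of a size of 1 in other settings, at -0.96 for Fcgrt with Leiden resolution 0.5 and at -0.16 for Fcer1g with 3000 variable genes. The other 4 rested on few UMIs: Fcgr1 in T cells (6 and 18 UMIs), Fcgr4 in NK cells (6 and 20), Fcgr3 in mural cells (8 and 15) and Fcgrt in epithelial cells (10 and 34), classes in which 4.39%, 5.75%, 10.6% and 14.5% of genes were past it. No member was past it in classical monocytes (3.43% of genes), non-classical monocytes (6.84%) or alveolar macrophages (2.93%), with 6 members measured in each, nor in the H2-Eb1-led cluster (6.28%), basophils (11.4%), endothelial cells (4.6%) or fibroblasts (7.92%). Over all 69 comparisons the median log2 ratio was -0.03.

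The share of cells with a UMI was read after thinning every cell to 1000 UMIs. Fcgr2b was found in 24.0% of saline and 14.9% of NP classical monocytes (92.5% and 85.8% unthinned) and in 35.5% and 16.5% of dual-marker monocytes (95.2% and 79.8% unthinned). In non-classical monocytes the shares were 16.5% and 15.9% (58.2% and 59.1% unthinned), with overlapping intervals. T cells, which gave the background, stood at 0.396% and 0% (1.58% and 4.29% unthinned), where 0 of 420 cells allows a share of up to 0.714%. Median depth was 15730 and 16570 UMIs in classical monocytes and 6281 and 6519 in T cells.

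Classical monocytes with both an activating and an inhibitory UMI made up 13.7% in saline (10.9% to 16.8%) and 6.22% in NP (4.59% to 8.21%). In dual-marker monocytes the share with both was 19.4% and 9.25%. The share with Fcgr2b alone was 16.1% (10.14% to 23.81%) and 7.25% (4.91% to 10.25%) in dual-marker and 10.3% and 8.65% in classical monocytes, with overlapping intervals in each class. In non-classical monocytes the share with both was 8.79% (3.87% to 16.6%) in saline and 12.2% (8.98% to 16.1%) in NP, with overlapping intervals. The share with an activating UMI alone hardly differed, at 36.6% and 38.4% in classical and 32.3% and 35.8% in dual-marker monocytes. Neutrophils were almost wholly of the activating-only or empty kinds, with activating UMIs alone in 51.5% and 51.8% and Fcgr2b alone in 0.748% and 1.03%. B cells showed the reverse, with Fcgr2b alone in 6.36% and 4.70% and activating UMIs in 0.424% and 0.336%. These shares depend on the thinned depth, and a cell without a UMI is not a cell without the receptor. Unthinned, Fcgr3 was found in 93.4% and 91.6% of neutrophils and Fcgr2b in 12.5% and 13.4%. In unthinned classical monocytes Fcgr3 was found in 99.8% and 98.6%, and Fcgr2b in 92.5% and 85.8%.

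**Figure D5:**
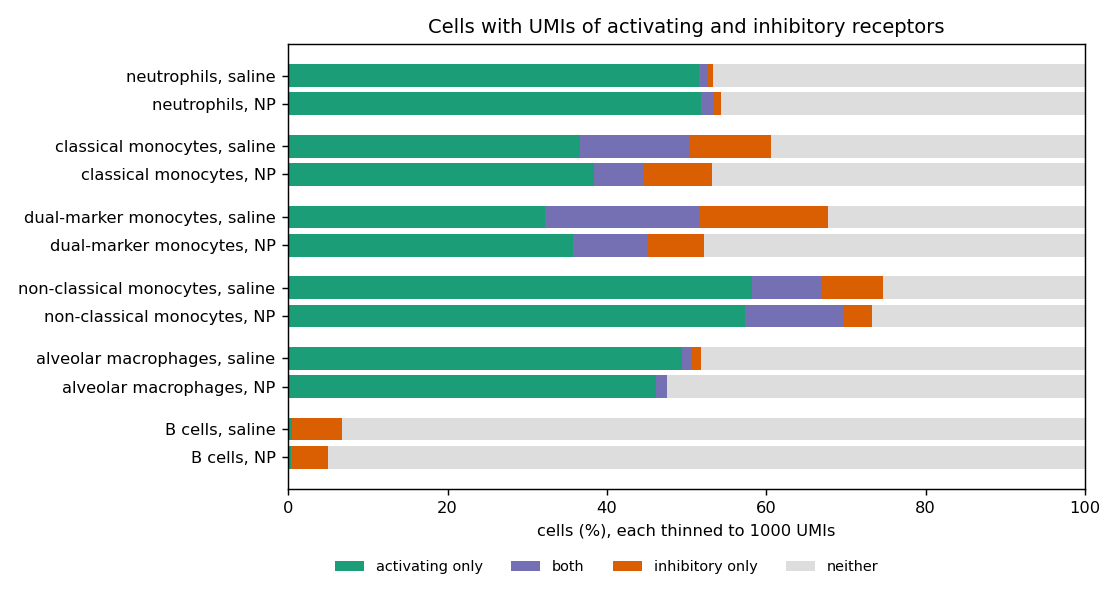
Stacked bars give the percentage of cells of 6 classes, in each library, with UMIs of activating receptors only, of both kinds, of Fcgr2b only or of neither, after thinning to 1000 UMIs per cell. The segment for both kinds is shorter in NP in classical (6.22% against 13.7%) and dual-marker monocytes (9.25% against 19.4%) but not in non-classical monocytes (12.2% against 8.79%), and B cells show almost no activating segment.

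Fcgrt, which recycles IgG instead of signalling, had its highest level in alveolar macrophages, where it did not differ between the libraries beyond counting error: 498 CPM in saline and 508 in NP, a log2 ratio of 0.03 (-0.07 to 0.13). In monocytes it was lower in NP. Non-classical monocytes held 316 and 185, a log2 ratio of -0.77 (-1.01 to -0.53), dual-marker monocytes 176 and 87.7, a log2 ratio of -1.005 (-1.20 to -0.80), and classical monocytes 106 and 77.3, a log2 ratio of -0.46 (-0.59 to -0.33). The 12 alveolar macrophage markers summed to 0.117% of classical monocyte UMIs in saline, with none at 0, and 0.0527% in NP, with 2 at 0. In dual-marker monocytes the sums were 0.0392% and 0.0343% (3 at 0 in each), and in non-classical monocytes 0.0746% (7 at 0) and 0.0647% (2 at 0), and the part of these cells in the Fcgrt result was not tested. Fcgrt was lower in 6 of 6 classical clusters, 2 of them with intervals clear of 0, and in both dual-marker clusters that could be compared. Thinned to 1000 UMIs, an Fcgrt UMI was found in 29.7% of saline and 14.2% of NP non-classical monocytes (78.0% and 71.3% unthinned).

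Fcgrt was also found in structural cells, where free RNA could supply at most 3.32% of its fibroblast UMIs and 8.94% of its endothelial UMIs in either library. Fibroblasts held 222 and 215 CPM, mural cells 159 and 139 and endothelial cells 47.6 and 41.9, against 10.3 and 8.92 in T cells and 0.372 and 0.657 in neutrophils. The log2 ratio was -0.05 (-0.40 to 0.30) in fibroblasts and -0.18 (-0.54 to 0.19) in endothelial cells. The 14 neutrophil markers summed to 2.19% of endothelial UMIs in saline and 0.383% in NP, and their part in the endothelial values of the other members was not tested. Removing the doublets called in each library, which numbered 1 in saline and 311 in NP, took the endothelial log2 ratio of Fcgr1 from 0.83 to -2.496, so no direction is read from these cells.

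Fcer1a marked basophils almost alone. It had 104 UMIs in 21 saline basophils and 166 in 39 NP basophils, or 597 and 616 CPM, a log2 ratio of 0.05, and basophils held 94.5% and 96.5% of all Fcer1a UMIs. Basophils also carried Fcgr3, at 470.7 and 379, and Fcgr2b, at 97.6 and 85.4, and the activating to inhibitory ratio was 5.18 and 4.57. With so few cells the intervals of these differences all included 0, being -0.75 to 0.12 for Fcgr3. That of Fcer1g in basophils excluded 0, at a log2 ratio of -0.20 (-0.38 to -0.02).

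Fcgr2b was the Fc gamma receptor transcript of B cells, whose Fcgr3 shares after thinning (0.424% and 0.336%) lay below those of T cells (2.77% and 1.67%). Fcgr2b stood at 68.5 CPM in saline and 51.0 in NP, a log2 ratio of -0.43 (-0.74 to -0.12), and free RNA could supply at most 0.814% and 0.946% of those UMIs. Fcer1g in B cells rested on fewer cells and more free RNA: of its 174 and 91 UMIs, free RNA could supply up to 34.1% and 50.8%, and 1 cell held 25.3% and 24.2%. Its log2 ratio of -1.13 went with a lower share of the 14 neutrophil markers in B cells, 0.241% of UMIs in saline and 0.0983% in NP, whose part in it was not tested. The ratio was -0.16 when clusters were built from 3000 variable genes, -0.64 with classes from a marker score per cell and -0.70 with at most 4000 detected genes.

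Antibody heavy chains were counted, among them the IgG and IgE chains that these receptors bind, and 8 of 9 were in the matrix. The chain not in it was Ighg2a, which could therefore not be counted. In B cells Ighm, the IgM chain, stood at 4272 CPM in saline and 3500.2 in NP, and Ighd, the IgD chain, at 832 and 814. For Ighm, 1 cell held 19.95% of all its saline UMIs and 1 cell 12.45% of its NP UMIs. Ighg1 and Igha rested on single cells: 1 cell held 99.1% of all 1280 Ighg1 UMIs in saline, and 1 cell held 95.1% of saline and 99% of NP Igha UMIs. Ighg3 was spread over more cells, with 174 UMIs in saline and 104 in NP, of which 1 cell held 39.1% and 13.5%, and Ighg2b had 0 and 14 UMIs. Ighe, the ligand chain of Fcer1a, and Ighg2c were counted 0 times in both libraries. The count of Ighg2c says nothing about Ighg2a. Serum antibody was not measured here.

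The genes that act with the receptors were read as lists, by the same log2 ratio of at least 1 in size. Of 12 genes of activating signalling, such as the kinases Lyn and Syk, 12 were measured in neutrophils and 11 in each monocyte class, and none was past it, beside 7.49% of all genes in neutrophils and 3.43%, 5.33% and 6.84% in classical, dual-marker and non-classical monocytes. Syk, the kinase that binds the phosphorylated signalling chain, had log2 ratios of 0.18 in neutrophils, -0.07 in classical and 0.08 in non-classical monocytes. Of 8 genes of inhibitory signalling, all were measured in these classes and none was past it. Inpp5d, the lipid phosphatase SHIP that Fcgr2b recruits, had log2 ratios of 0.29 (0.20 to 0.38) in neutrophils, 0.02 (-0.10 to 0.15) in classical monocytes and 0.64 (0.47 to 0.81) in B cells. The median of the inhibitory list was 0.08 in neutrophils, -0.04 in classical and 0.19 in non-classical monocytes, beside -0.13, -0.05 and -0.04 for all genes.

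Among other receptors that use the Fcer1g chain, Clec4e and Clec4d, lectins that sense damaged cells and microbial lipids, were higher in NP in several classes. Clec4e had log2 ratios of 0.39 (0.36 to 0.42) in neutrophils, 0.22 (0.12 to 0.32) in classical and 0.98 (0.68 to 1.30) in non-classical monocytes. In B cells Clec4e was lower, at -1.49 (-2.37 to -0.67) from 44 and 18 UMIs. It was the only gene of this list measured there, beside 3.48% of all genes past a size of 1. The 14 neutrophil markers summed to 0.241% of B cell UMIs in saline and 0.0983% in NP, and their part in the Clec4e value was not tested. In classical monocytes Clec4d was 0.04 (-0.16 to 0.24) and Clec4n, another gene of the list, -0.19 (-0.41 to 0.04). Clec4d was past a log2 ratio of 1 in non-classical monocytes, at 1.65 from 7 and 110 UMIs. It was 1 of 3 genes of this list measured there, beside 6.84% of all genes past it. Of the 4 genes of this list measured in neutrophils, 1 was past it, beside 7.49% of all genes. This was Ncr1, a receptor of NK cells, at 3.24 from 4 and 19 UMIs. Of 4 partner chains 2 were measured in these classes: Tyrobp, the sister adaptor of Fcer1g, lay at -0.01 in neutrophils and -0.02 in classical monocytes, and B2m, the partner of Fcgrt, at 0.76 and 0.36. B2m and Fcgrt thus had ratios of opposite sign in classical monocytes.

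Of 10 other Fc receptors, 4 were measured in neutrophils and 1 was past a log2 ratio of 1, where 7.49% of all genes were. This was Trim21, the cytosolic antibody receptor, at 2.98 CPM in saline and 7.31 in NP, a log2 ratio of 1.30 (0.97 to 1.62). In B cells 7 were measured and none was past it, beside 3.48% of all genes: Fcmr, the IgM receptor, was 0.15 (0.06 to 0.24), and Fcer2a, the low-affinity IgE receptor, 0.22 (0.11 to 0.34). In dual-marker monocytes (5.33% of all genes past it) 5 were measured. The 1 past it was Fcrla, downward at -1.22 (-2.56 to 0.19) from 9 and 13 UMIs. In non-classical monocytes (6.84%) 3 were measured, and 1 was past it downward, Fcrl1 at -1.17 (-2.15 to -0.10) from 13 and 29 UMIs. The 10 B cell markers summed to 0.0141% of dual-marker monocyte UMIs in saline and 0.00955% in NP. Their part in the Fcrla value was not tested.

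Over 11 classes with at least 50 cells in each library, 22 points in all, the genes with the closest pattern to each member were ranked among 9968 genes by Pearson's r of log2 level. The points share libraries and depth, and r is given as a description. Fcer1g was closest to Tyrobp (r = 0.987), Fcgr3 to Lilrb4a (r = 0.982), Fcgr1 to Msr1 (r = 0.982), Fcgrt to Sumf1 (r = 0.953), Fcgr4 to Pilrb2 (r = 0.941) and Fcgr2b to Dleu2 (r = 0.929). Fgr, one of the signalling kinases, was the third closest to Fcgr4 (r = 0.934), and Irf5 the third closest to Fcgr2b (r = 0.916). Fcer1a had too few UMIs to be ranked.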

How the data were processed

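Lung cells of 1 saline and 1 NP library, grouped by the treatment in the labels, were profiled on the 10x Chromium platform. The authors deposited raw counts, the UMIs of 32285 genes per barcode before cell selection, mapped to mm10. The submitters' processing notes name bcl2fastq and Cell Ranger 6.0, and the file headers name Cell Ranger 4. The matrices held 91168129 saline and 90081747 NP UMIs.

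A barcode was taken as a cell if it had 500 to 5000 detected genes and less than 7.5% of its UMIs from mitochondrial genes, as in the study, and no doublet was removed. After scaling each cell to 10000 UMIs and taking logs, 2000 variable genes without the Fc receptor and pathway genes gave 30 principal components, a graph of 20 neighbors and Leiden clusters at resolution 1 (Python 3.11.15, numpy 2.4.6, scipy 1.17.1, scikit-learn 1.9.0, leidenalg 0.10.2, scanpy 1.11.5). Mononuclear phagocytes were clustered again, and clusters were named from marker lists. UMIs were summed by class and library, and a log2 ratio of CPM was given with an exact conditional binomial 95% interval where both libraries had 20 cells and the gene 20 UMIs over both. Shares carry Clopper-Pearson intervals, and levels Poisson intervals. UMIs remove PCR copies, so intervals cover counting error only. In shares of cells, a count of 0 was read with 3 counts as its limit. Free RNA was estimated from barcodes with fewer than 50 UMIs and scaled by the S100a8 and S100a9 UMIs of a class. It was neither estimated nor subtracted in neutrophils. The ratio scripts were tested on simulated data.

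With 1 library per condition no test of the treatment was made. All 7 members are named. Other genes are named from the pathway lists or by their likeness to a member. Members and lists were chosen with earlier results of these data known. Alternatives changed the cell filters, doublet removal, clustering, class naming, scaling, free RNA (outside neutrophils), cluster mix and the receptors counted as activating. Matrices alone were used, and cluster names were rebuilt here, so they can differ from the study's.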

Additional observations from a re-analysis of the deposited data

Results flagged for a closer look

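For 5 measures the libraries differed in opposite directions in 2 cell classes, with both intervals clear of 0. The differences between classes were not tested, and each class has 1 library per condition. The log2 ratio of the activating to inhibitory balance was 0.60 in classical monocytes and -0.47 in alveolar macrophages. For Fcgr2b, the inhibitory receptor, it was -0.68 in classical monocytes and 0.57 in alveolar macrophages, where the values rest on 58 and 128 UMIs. For Fcgr1, the high-affinity receptor, it was 1.53 in neutrophils, from 31 and 45 UMIs, and -0.44 in dual-marker monocytes. For Fcgr3 it was 0.11 in alveolar macrophages and -0.39 in non-classical monocytes, and for Fcer1g 0.11 in non-classical and -0.080 in classical monocytes. The alveolar macrophage values turned sign with other cell filters: to 0.23 for the balance and -0.19 for Fcgr2b with mitochondrial UMIs under 5%, and to -0.11 for Fcgr3 with at most 4000 detected genes. Fcgr1 in neutrophils was 0.55 without the Steap4-led cluster, and the part of free RNA in it was not estimated.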

How the results depend on the processing

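No paired analysis was possible because each condition has 1 library and the labels give no shared replicate numbers. The balance of activating to inhibitory UMIs was recomputed 96 times over 6 classes, of which 88 values moved by less than counting error and 8 by more. With mitochondrial UMIs under 5% the alveolar macrophage log2 difference was 0.23, the opposite direction, as 43.98% of saline and 44.84% of NP cells were left. In classical monocytes it was 0.49 with classes from a marker score per cell, 0.44 with the saline mix of clusters, 0.96 without Fcgr3 and 0.47 with Fcgr3 alone. In non-classical monocytes it was 0.67 with the marker score and -0.11 with Fcgr3 alone, and in neutrophils -0.090 without Fcgr3. The causes were not tested. Of 720 member ratios, 646 moved by less than counting error and 74 by more, and none of these past a log2 ratio of 1 changed sign. They covered neutrophils, the monocyte classes, alveolar macrophages, B cells and endothelial cells. The ratios past 1 in T, NK, mural and epithelial cells were not recomputed. Of 486 values whose interval excluded 0 in the reported setting, 12 lost their sign, all in neutrophils, alveolar macrophages or endothelial cells. Removal of doublets by a shared threshold, of shared barcodes, of the Steap4-led neutrophils and of cluster M3 were chosen after seeing the data. Thinning to 2000 UMIs raised 51 of 70 shares beyond their interval. Few UMIs of the gene limit Fcgr1 in neutrophils (31 and 45) and Fcgr2b in alveolar macrophages (58 and 128). Few cells limit all members in basophils (21 and 39).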
